A study of Mus musculus with 14 samples.

Results

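The 32 genes described here encode enzymes and regulators of cholesterol and fatty acid synthesis, and were measured in differentiating C2C12 cells with and without Klf5 knockdown. They were taken by gene symbol from the deposited table, which holds 24016 RefSeq transcripts with 1 transcript per gene, and all 32 were found. Of these, 31 had a mean of at least 1 FPKM over the libraries and are the genes counted below. The remaining gene, Hmgcs1, which makes HMG-CoA for the pathway, is listed at 0 in all 8 libraries. Its transcript, NM_001291439, is placed at 2 positions of the genome, and of the 391 transcripts placed at more than 1 position 37.3% are listed at 0 everywhere, against 19.0% of those placed at 1. Its expression is therefore not described.

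C2C12 is a mouse myoblast line that exits the cell cycle and fuses into myotubes when serum is reduced. Cells had been transfected with a control siRNA (siCtrl) or with a pool of siRNAs against Klf5 (siKlf5), a zinc finger transcription factor, and poly(A) RNA was sequenced on days 0, 1, 2 and 3 in differentiation medium. All groups are the same parental line, and each of the 8 combinations of siRNA and day is 1 library. A difference between the siRNAs on a given day therefore has no replicate error, and each such ratio is given with a 95% interval that covers counting error only. The study asked which genes depend on Klf5 during differentiation. Klf5 itself measured 223.8, 381.1, 614.4 and 933.1 FPKM in siCtrl cells on days 0, 1, 2 and 3, and 35.1, 159.6, 192.1 and 211.4 FPKM in siKlf5 cells. The knockdown libraries thus held between 15.7% (day 0) and 41.9% (day 1) of the control level, so that a larger share of Klf5 transcript was left on day 1 than on any other day.

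Animal cells build cholesterol from acetyl-CoA through mevalonate, isoprenoid units and squalene, and build fatty acids from acetyl-CoA through malonyl-CoA, followed by elongation and desaturation. Both routes are driven by the sterol regulatory element binding proteins, encoded by Srebf1 and Srebf2. These precursors are carried from the endoplasmic reticulum to the Golgi by Scap when sterol is low and are held back by the Insig proteins when it is high. Myoblasts need both products for the membranes that are remodelled during fusion.

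In control cells most of these genes were at their highest on day 1, whereas in Klf5 knockdown cells most were at their highest on day 3. In the siCtrl libraries 22 of the 31 genes had their maximum on day 1, compared with 16.3% of the 7630 transcripts in the same range of abundance. In the siKlf5 libraries 2 genes peaked on day 1 (Hsd17b7 and Pmvk) and 19 peaked on day 3, compared with 18.8% of those transcripts on day 3. This abundance range runs from the gene with the lowest mean, Tm7sf2 at 63.1 FPKM, to that with the highest, Scd2 at 1809 FPKM.

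The difference between the siRNAs accordingly changed sign. The log2 ratio of siKlf5 to siCtrl, computed on FPKM plus a pseudocount of 0.1, had medians over the 31 genes of 0.06, -0.33, 0.14 and 0.47 on days 0 to 3. Over transcripts in the same range of abundance these medians were 0.01, 0.03, -0.01 and -0.00. The siKlf5 library of day 1 was the lower in 28 of the 31 genes, and that of day 3 was the higher in 28. Of the 7630 transcripts in the abundance range, 3476 were lower on day 1 and 3773 were higher on day 3. In such bulk RNA, fewer cells expressing a gene and less of its RNA per cell cannot be told apart. In 26 genes the ratio was below 0 on day 1 and above 0 on day 3, a pattern found in 19.9% of the 14312 expressed transcripts and in 21.0% of those in the abundance range. These counts are by sign alone. For Mvk, Pmvk and Tm7sf2 the counting intervals of both days include 0. For Fdft1, Msmo1, Nsdhl, Sc5d, Srebf1, Insig1, Fasn, Fads1 and Fads2 that of day 1 does, and for Hsd17b7 that of day 3. For the rest of the 26 genes, such as Lss and Cyp51, neither does. Insig1 was level on day 1 (-0.005) and left the pattern when each library was centred on transcripts of like abundance. The day 1 and day 3 ratios share no library, but the 31 genes are not independent of each other within a library, so this count was not used as a test of the conditions. The 5 genes without this pattern were again taken by sign alone. Ebp and Srebf2 were higher in siKlf5 on both days, and Dhcr7 and Insig2 were lower on both. Scap was higher on day 1 and lower on day 3.

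**Figure D1:**
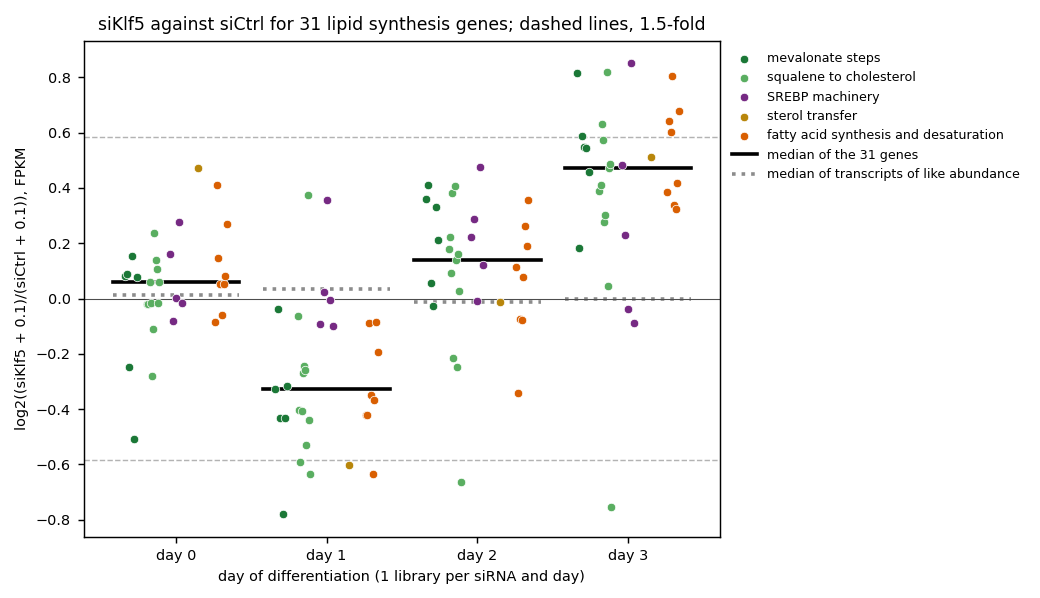
Log2 ratio of siKlf5 to siCtrl FPKM (y axis) for each of the 31 genes on days 0 to 3 (x axis), coloured by role. Each point is 1 gene in 1 pair of libraries, black bars are the medians of the 31 genes (0.06, -0.33, 0.14 and 0.47), dotted grey bars are the medians of transcripts of like abundance, and dashed lines mark 1.5-fold. The points lie mostly below 0 on day 1 and mostly above 0 on day 3, and Dhcr7 is the lowest point on day 3.

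Few of these differences were large. On day 0 no gene passed 1.5-fold in either direction, compared with 11.1% of all expressed transcripts lower and 9.22% higher. On day 1 the 5 genes Mvd, Lss, Dhcr7, Stard4 and Scd1 were lower past 1.5-fold, compared with 11.0% of expressed transcripts, and none was higher, compared with 16.4%. On day 2 Dhcr7 alone was lower past 1.5-fold, with a background of 13.0% lower and 7.69% higher. On day 3 the 9 genes Acat2, Pmvk, Lss, Nsdhl, Insig1, Acaca, Fasn, Elovl6 and Fads2 were higher past 1.5-fold, compared with 10.7% of all expressed transcripts, and Dhcr7 was lower, compared with 12.5%. The background over all expressed transcripts includes many of low count. Among the 7630 transcripts of like abundance, the shares past 1.5-fold were smaller, with 2.98%, 3.66%, 3.20% and 3.70% lower and 1.22%, 6.38%, 1.17% and 2.58% higher on days 0 to 3. With a cutoff of 2-fold none of the 31 genes passed in either direction on any day.

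**Figure D2:**
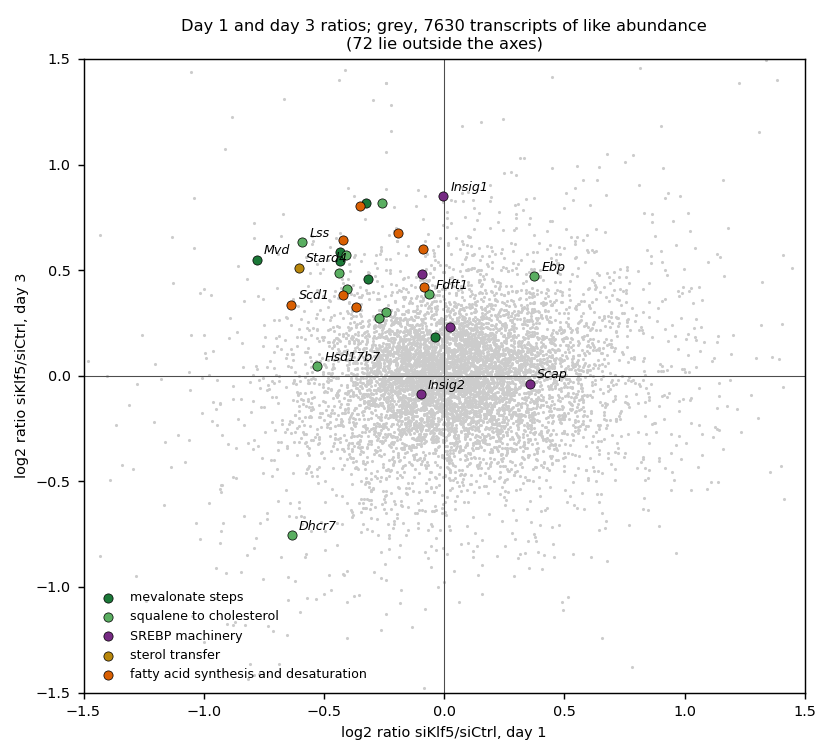
Log2 ratio of siKlf5 to siCtrl on day 1 (x axis) against that on day 3 (y axis), for the 31 genes (coloured by role) and for 7630 transcripts of like abundance (grey), of which 72 lie outside the axes. The grey points centre on 0, 26 of the 31 genes lie to the upper left of the origin, and Dhcr7 lies in the lower left.

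Because the genes shared this pattern, the 300 bases around their annotated starts (250 before and 50 after, mm9) were read for short motifs. The window was read for 31 of the 32 genes, all except Hmgcs1. The NF-Y box CCAAT, a motif often found beside SREBP sites in promoters of sterol genes, was present on either strand in 22 of the 31 windows (71.0%), compared with 37.6% of all promoters in the table and 37.5% of those of expressed transcripts. Of the 17 sterol enzymes expressed, 14 held it, and of the 8 fatty acid genes 4 did. The GC box GGGCGG was present in 16 of the 17 sterol enzyme windows and in 3 of the 8 fatty acid gene windows, with 61.6% among expressed transcripts. The Klf-type motif CCNCNCCC, which can overlap the GC box, was present in 74.2% of the 31 windows and in 67.3% of those of expressed transcripts. The E-box CACGTG was present in 12.9% and 9.59%, respectively. The sterol regulatory element spelled TCACNCCAC was in none of the 31 windows and in 1.18% of all promoters, so these letters were rare in windows of this kind. A match is a description of sequence and was not tested as a binding site.

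The windows of 4 genes are shown for their contrast in the values below, with NF-Y boxes (CCAAT, or ATTGG on the other strand) in capitals. Nsdhl (NM_010941, chrX:70163610-70163909, plus strand) and Idi1 (NM_145360, chr13:8884602-8884901, plus strand) follow the shared pattern. Dhcr7 (NM_007856, chr7:151008822-151009121, plus strand) is, like Ebp, a sterol enzyme without this pattern. Elovl6 (NM_130450, chr3:129235054-129235353, plus strand) is the fatty acid gene that fell most with differentiation.
Nsdhl: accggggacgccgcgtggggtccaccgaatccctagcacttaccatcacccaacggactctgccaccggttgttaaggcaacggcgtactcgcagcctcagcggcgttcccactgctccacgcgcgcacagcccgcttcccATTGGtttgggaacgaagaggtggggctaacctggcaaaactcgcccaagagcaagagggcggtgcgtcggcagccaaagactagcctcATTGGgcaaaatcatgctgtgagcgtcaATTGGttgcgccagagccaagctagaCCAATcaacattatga
Idi1: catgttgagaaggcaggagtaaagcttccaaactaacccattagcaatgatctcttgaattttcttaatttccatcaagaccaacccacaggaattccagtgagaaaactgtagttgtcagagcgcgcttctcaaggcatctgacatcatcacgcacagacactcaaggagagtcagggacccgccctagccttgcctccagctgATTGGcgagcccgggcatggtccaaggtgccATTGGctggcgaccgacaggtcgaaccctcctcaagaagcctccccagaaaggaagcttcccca
Dhcr7: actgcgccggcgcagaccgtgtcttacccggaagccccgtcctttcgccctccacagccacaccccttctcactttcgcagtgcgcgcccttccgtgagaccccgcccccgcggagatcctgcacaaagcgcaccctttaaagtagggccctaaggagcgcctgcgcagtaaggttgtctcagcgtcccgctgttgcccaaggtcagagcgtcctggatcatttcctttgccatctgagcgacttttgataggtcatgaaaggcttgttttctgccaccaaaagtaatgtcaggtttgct
Elovl6: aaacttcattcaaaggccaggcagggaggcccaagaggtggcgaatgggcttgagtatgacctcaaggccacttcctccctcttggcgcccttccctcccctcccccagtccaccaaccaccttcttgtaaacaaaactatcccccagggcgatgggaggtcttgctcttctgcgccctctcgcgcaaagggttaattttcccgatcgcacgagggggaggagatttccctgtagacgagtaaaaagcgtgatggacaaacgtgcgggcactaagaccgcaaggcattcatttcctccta
There are 4 boxes in the Nsdhl window, on both sides of the start, and 2 in that of Idi1, both before the start, and none in those of Dhcr7 and Elovl6. Dhcr7 was thus 1 of 3 sterol enzymes without the box, but the others, Acat2 and Pmvk, followed the shared pattern and passed 1.5-fold on day 3. Elovl6 also followed the shared pattern without a box. Of the genes without the pattern, Ebp, Srebf2 and Insig2 held 2, 1 and 3 boxes, and Dhcr7 and Scap held none. A link between the box and the pattern was not tested.

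Among the mevalonate steps, all 6 genes were lower in siKlf5 on day 1 (median log2 ratio -0.38) and all 6 were higher on day 3 (0.55). Acat2, a cytosolic thiolase that joins acetyl-CoA units, measured 346.1, 430.9, 279.5 and 260.6 FPKM in siCtrl cells on days 0 to 3 and 365.8, 343.9, 358.5 and 459.1 FPKM in siKlf5 cells. The control values of days 2 and 3 lay below those of days 0 and 1, the knockdown value of day 3 was the highest of the 8, and the log2 ratio on day 3 was 0.82 (95% counting interval 0.54 to 1.09). Idi1, which interconverts the isoprenoid building blocks, measured 298.0, 533.9, 420.5 and 370.0 FPKM in siCtrl and 209.4, 395.6, 529.2 and 539.8 FPKM in siKlf5. The knockdown value was the lower on days 0 and 1 and the higher on days 2 and 3, with log2 ratios of -0.51 (-0.79 to -0.23), -0.43 (-0.68 to -0.19), 0.33 (0.16 to 0.50) and 0.54 (0.34 to 0.75).

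Mvd, the decarboxylase that makes isopentenyl diphosphate, had the largest reduction on day 1. Its values were 86.9, 195.8, 140.8 and 138.1 FPKM in siCtrl cells and 96.6, 114.0, 138.2 and 202.1 FPKM in siKlf5 cells. The control library of day 1 stood above its neighbours while each knockdown value exceeded that of the day before, giving ratios of -0.78 (-1.35 to -0.22) on day 1 and 0.55 (0.12 to 0.98) on day 3. Fdps, which makes farnesyl diphosphate, measured 672.8, 1188.5, 715.4 and 739.4 FPKM in siCtrl and 710.2, 954.1, 829.0 and 1015.6 FPKM in siKlf5. Its ratio was -0.32 (-0.56 to -0.08) on day 1 and 0.46 (0.24 to 0.68) on day 3. Pmvk and Mvk, the kinases that phosphorylate mevalonate in turn, differed less from the counting error. Pmvk measured 189.9, 224.1, 140.9 and 96.5 FPKM in siCtrl and 159.8, 166.1, 146.5 and 144.9 FPKM in siKlf5, and its day 3 ratio of 0.59 had an interval of -0.04 to 1.23. Mvk stayed between 103.1 and 136.9 FPKM in all libraries, and the intervals of its 4 ratios all include 0.

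**Figure D3:**
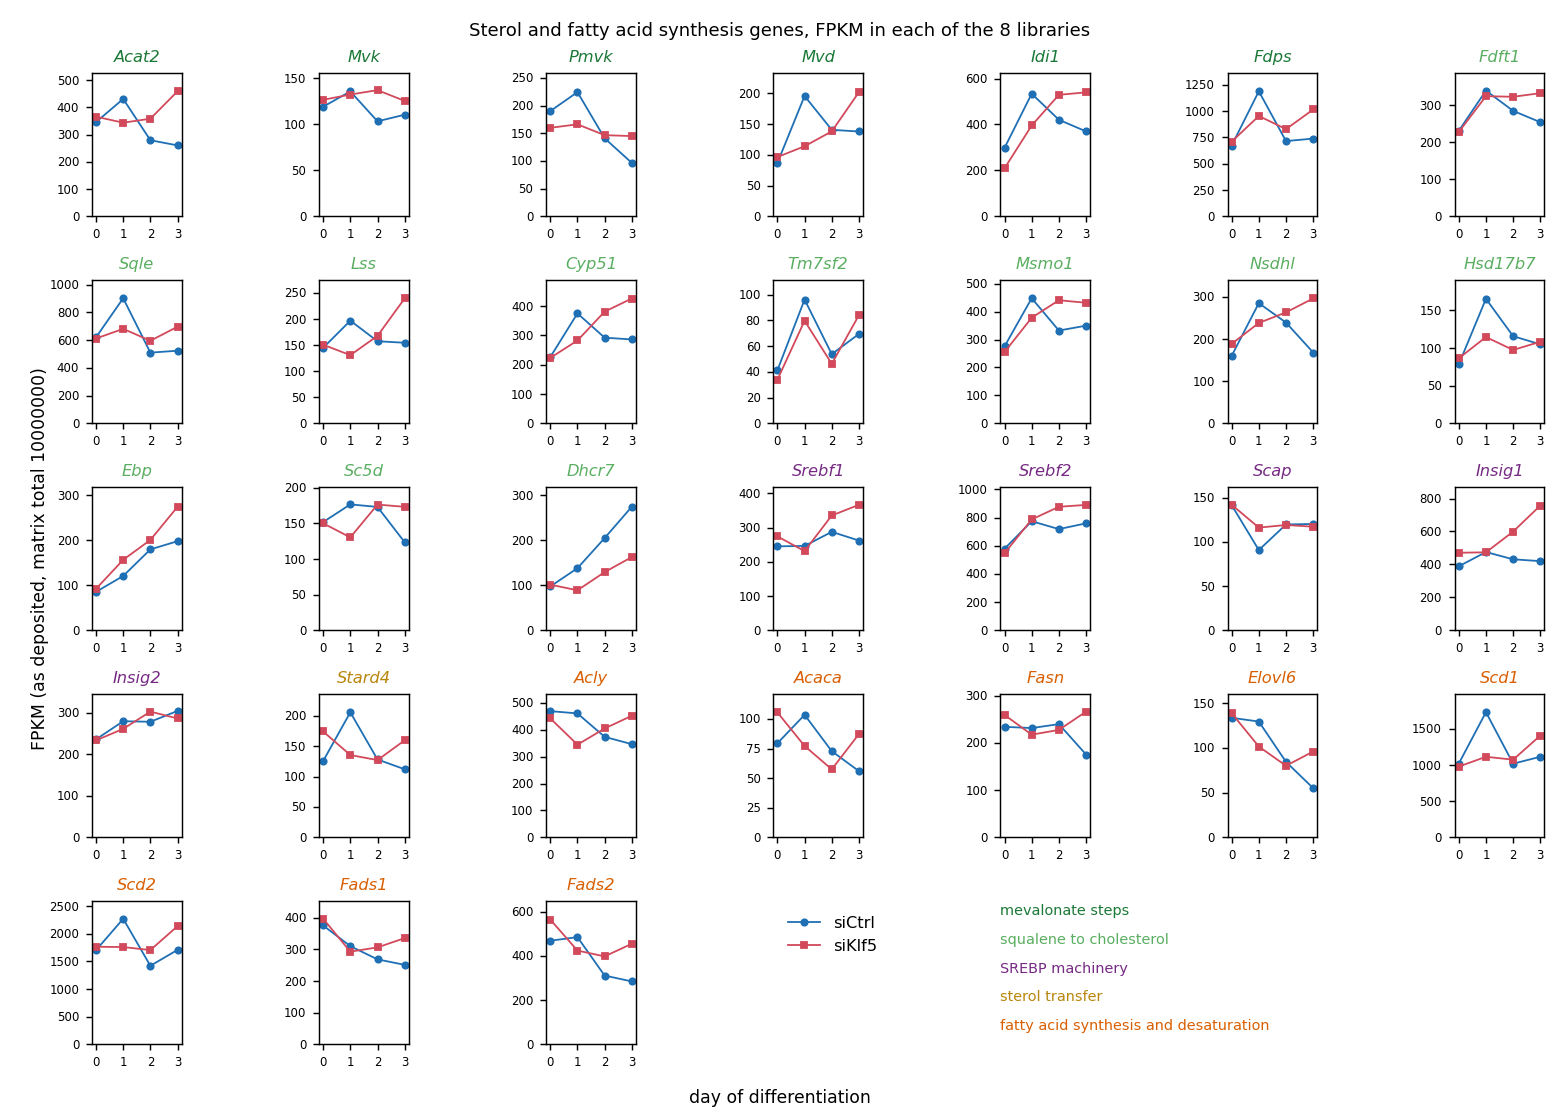
FPKM (y axis, from 0, with its own scale for each gene) by day of differentiation (x axis) for the 31 genes, 1 point per library, in siCtrl (blue circles) and siKlf5 (red squares) cells. In most panels the blue line has its highest point on day 1 and the red line lies above it on day 3, whereas for Dhcr7 the red line lies below on days 1, 2 and 3.

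The genes from squalene to cholesterol showed the same order with 1 clear exception. Of the 11 genes, 10 were lower in siKlf5 on day 1 (median -0.40) and 10 were higher on day 3 (median 0.41). Lss, which closes squalene epoxide into lanosterol, measured 144.8, 196.9, 157.4 and 154.5 FPKM in siCtrl and 150.8, 130.8, 167.8 and 239.6 FPKM in siKlf5. It was the gene that passed 1.5-fold in both directions, at -0.59 (-0.99 to -0.19) on day 1 and 0.63 (0.33 to 0.93) on day 3. Cyp51, the lanosterol demethylase, measured 225.9, 374.9, 292.1 and 286.2 FPKM in siCtrl and 223.2, 282.6, 380.9 and 425.7 FPKM in siKlf5. The control series peaked on day 1 and the knockdown series on day 3, with ratios of -0.41 (-0.64 to -0.18) and 0.57 (0.39 to 0.76) on days 1 and 3. Nsdhl, a sterol dehydrogenase of the demethylation complex, measured 160.2, 285.4, 239.2 and 168.1 FPKM in siCtrl and 188.7, 238.4, 263.5 and 296.6 FPKM in siKlf5. By day 3 the control had returned near its day 0 value, and the ratio was 0.82 (0.49 to 1.15).

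Sqle, the squalene epoxidase, measured 620.7, 902.2, 510.0 and 524.0 FPKM in siCtrl and 611.9, 681.8, 595.7 and 697.1 FPKM in siKlf5. Its ratios were -0.40 (-0.59 to -0.22) on day 1 and 0.41 (0.23 to 0.59) on day 3. Sc5d, a sterol desaturase, measured 152.0, 176.8, 173.2 and 123.6 FPKM in siCtrl and 150.2, 130.5, 176.5 and 173.4 FPKM in siKlf5. The ratio of Sc5d was -0.44 (-0.93 to 0.05) on day 1, an interval that includes 0, and 0.49 (0.08 to 0.90) on day 3. Sqle and Sc5d were equal between the siRNAs on day 0 to within 0.02 on the log2 scale and had ratios of opposite sign on days 1 and 3.

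Msmo1, Fdft1, Hsd17b7 and Tm7sf2 passed 1.5-fold on no day. Msmo1, the methylsterol oxidase, measured 275.4, 447.9, 332.3 and 349.7 FPKM in siCtrl and 255.3, 378.2, 440.8 and 431.6 FPKM in siKlf5, and its largest ratio was that of day 2, 0.41 (0.17 to 0.65). Fdft1, the squalene synthase, measured 231.5, 340.2, 285.5 and 254.9 FPKM in siCtrl and 228.4, 325.2, 323.6 and 333.4 FPKM in siKlf5, with a ratio of 0.39 (0.14 to 0.64) on day 3. Hsd17b7, a ketoreductase, was lower on day 1 at -0.53 (-0.89 to -0.18), at 165.4 FPKM in siCtrl and 114.7 in siKlf5, but on day 3 its ratio was 0.05 (-0.28 to 0.38). Tm7sf2, a sterol reductase and the least abundant of the 31 genes, measured 41.2, 96.2, 53.8 and 69.5 FPKM in siCtrl and 33.9, 79.7, 46.3 and 84.1 FPKM in siKlf5. All 4 of its intervals include 0.

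Ebp and Dhcr7 were the sterol enzymes without the shared pattern. Ebp, the sterol isomerase, measured 85.6, 121.0, 180.1 and 198.3 FPKM in siCtrl and 92.2, 157.0, 201.1 and 275.0 FPKM in siKlf5. Each value exceeded that of the day before in both series, and the ratio was above 0 on all 4 days. The interval of this ratio included 0 on days 0, 1 and 2, with 0.38 (-0.21 to 0.97) on day 1. On day 3 the ratio was 0.47 (0.11 to 0.84). Dhcr7, the reductase of the last step, measured 97.5, 138.2, 205.1 and 275.0 FPKM in siCtrl and 101.7, 89.0, 129.5 and 163.0 FPKM in siKlf5. The siRNAs were alike on day 0 (0.06, -0.38 to 0.50), and thereafter the knockdown was lower on each day, at -0.63 (-1.15 to -0.13), -0.66 (-0.98 to -0.36) and -0.75 (-1.06 to -0.45). On days 2 and 3 it was the gene of the 31 with the lowest ratio.

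Among the regulators of the pathway, Insig1 had the largest ratio of any of the 31 genes on day 3. Insig1, which retains Scap and SREBP in the endoplasmic reticulum and is itself a target of SREBP, measured 388.8, 475.1, 431.1 and 420.0 FPKM in siCtrl and 470.9, 473.6, 599.3 and 757.4 FPKM in siKlf5. The control values stayed within 388.8 to 475.1, the libraries of day 1 were level, and the ratio reached 0.48 (0.30 to 0.65) on day 2 and 0.85 (0.66 to 1.04) on day 3. Srebf1 measured 245.1, 246.3, 287.4 and 262.0 FPKM in siCtrl and 274.2, 231.2, 335.2 and 366.3 FPKM in siKlf5, with a ratio of 0.48 (0.29 to 0.68) on day 3. Srebf2, the paralogue that acts mainly on sterol genes, measured 578.9, 774.1, 718.1 and 759.1 FPKM in siCtrl and 546.7, 786.7, 876.6 and 889.8 FPKM in siKlf5. Its siRNA difference was smaller, at 0.02 (-0.12 to 0.17) on day 1 and 0.23 (0.11 to 0.35) on day 3. Scap lay between 90.8 and 142.0 FPKM and Insig2 between 233.4 and 304.3 FPKM, and for both the intervals of all 4 ratios include 0. The level of neither gene thus differed between the siRNAs beyond these intervals, which are computed on reads divided by 6 and would be narrower on undivided reads. Stard4, a carrier that moves sterol between membranes, measured 125.7, 205.9, 128.2 and 112.1 FPKM in siCtrl and 174.3, 135.5, 127.2 and 159.8 FPKM in siKlf5, and had ratios of 0.47 (0.12 to 0.83), -0.60 (-1.01 to -0.21), -0.01 (-0.34 to 0.32) and 0.51 (0.15 to 0.88).

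All 8 genes of fatty acid synthesis and desaturation were lower in siKlf5 on day 1 (median -0.36) and all 8 were higher on day 3 (median 0.51). The day 1 intervals of Fasn (-0.27 to 0.10), Fads1 (-0.36 to 0.19) and Fads2 (-0.53 to 0.15) include 0, and those of the others do not. Elovl6, which elongates palmitate, measured 133.8, 129.5, 84.4 and 55.0 FPKM in siCtrl and 138.9, 101.6, 80.1 and 96.0 FPKM in siKlf5. The siRNAs were level on day 2, and on day 3 the control was at its lowest while the knockdown was not, leaving a ratio of 0.80 (0.45 to 1.16) on day 3. Acaca, the acetyl-CoA carboxylase that commits carbon to fatty acids, measured 79.4, 103.5, 72.8 and 55.9 FPKM in siCtrl and 105.5, 77.2, 57.4 and 87.3 FPKM in siKlf5. Its ratio was above 0 on days 0 and 3 and below 0 on days 1 and 2, at 0.41 (0.16 to 0.67), -0.42 (-0.74 to -0.11), -0.34 (-0.61 to -0.07) and 0.64 (0.35 to 0.93) on days 0 to 3. Fasn, the fatty acid synthase, measured 234.0, 231.4, 239.7 and 175.3 FPKM in siCtrl and 259.2, 217.4, 227.4 and 266.3 FPKM in siKlf5. The first 3 control values were level and that of day 3 was lower, with a ratio of 0.60 (0.45 to 0.76).

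Acly, which supplies cytosolic acetyl-CoA from citrate, measured 469.6, 461.1, 373.9 and 346.7 FPKM in siCtrl and 442.8, 344.8, 405.1 and 452.4 FPKM in siKlf5. Its ratio was -0.42 (-0.63 to -0.21) on day 1 and 0.38 (0.21 to 0.56) on day 3. The desaturases Fads1 and Fads2, which make long polyunsaturated fatty acids, lie side by side on chromosome 19. Fads2 measured 468.1, 484.4, 310.6 and 284.1 FPKM in siCtrl and 564.1, 423.6, 397.3 and 454.4 FPKM in siKlf5, with a day 3 ratio of 0.68 (0.36 to 1.00). Fads1 measured 375.6, 310.2, 268.5 and 251.1 FPKM in siCtrl and 397.0, 292.8, 306.3 and 335.7 FPKM in siKlf5, with 0.42 (0.19 to 0.65) on day 3. In both genes the control value of day 3 was the lowest of the 8.

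The stearoyl-CoA desaturases Scd1 and Scd2, which put the double bond into oleate, were the most abundant of the 31 genes. Scd1 measured 1019.6, 1731.8, 1018.7 and 1114.8 FPKM in siCtrl and 978.6, 1114.5, 1074.3 and 1408.3 FPKM in siKlf5. The siCtrl library of day 1 stood above all others, and the ratio was -0.64 (-0.74 to -0.53) on day 1 and 0.34 (0.25 to 0.43) on day 3. Scd2 measured 1703.9, 2272.2, 1420.5 and 1709.2 FPKM in siCtrl and 1765.5, 1760.1, 1705.6 and 2138.9 FPKM in siKlf5, with -0.37 (-0.45 to -0.29) on day 1 and 0.32 (0.25 to 0.39) on day 3. On day 2 the siCtrl library was 1.72 times as deep as the siKlf5 library, and the authors stated a limit of 3 reads per position. Whether depth or this limit affected the ratios of these 2 genes was not tested. With each library centred on transcripts of like abundance, the day 2 ratios moved from 0.08 to -0.18 for Scd1 and from 0.26 to -0.10 for Scd2, so no direction is given for either on day 2.

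Tested over the 4 days together, none of the 31 genes differed between the siRNAs. The test was limma on log2(FPKM + 0.1) with day as a factor and 3 residual degrees of freedom, adjusted over all 14312 expressed transcripts, and its residual is how far the siRNA difference varies between days, which are not replicates of 1 condition. It called 0.00699% of transcripts higher and 0.0559% lower. The genes at an unadjusted p under 0.05 were Dhcr7, Insig1 and Ebp, 3 of 31, against 1374 of 14312 overall. Dhcr7 was lower by a mean log2 difference of -0.50 (SE 0.14, adjusted p = 0.337), Insig1 was higher by 0.40 (SE 0.13, adjusted p = 0.397) and Ebp by 0.28 (SE 0.10, adjusted p = 0.436). A mean over days cannot show a difference that changes sign, so the change of the difference with time was tested as well.

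Fitted as straight lines over the days, 28 of the 31 genes had a positive difference in slope (siKlf5 minus siCtrl). Among all expressed transcripts 6758 of 14312 did. A positive difference can be a steeper rise, a flatter decline or a rise in place of a decline. The median difference of the 31 genes was 0.17 log2 units per day, compared with -0.01 over all expressed transcripts. The lowest was that of Dhcr7, -0.25 per day (SE 0.12), and the highest those of Idi1, 0.39 (SE 0.18), Pmvk, 0.30 (SE 0.14), and Acat2, 0.29 (SE 0.12). No slope difference passed the adjusted threshold in limma, either among these genes or among all transcripts, where 0.0% were called in each direction. At an unadjusted p under 0.05 there were 2 of the 31 genes, Acat2 and Insig1, and 316 of the 14312 transcripts. A straight line does not follow a difference that falls on day 1 and rises afterwards, so this fit is not a direct test of that pattern. The opposite ratios on days 1 and 3 are a description of 4 libraries and have no test of their own.

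The change with differentiation was then taken over both siRNA series. In limma with siRNA as a term, 8 of the 31 genes rose from day 0 to day 1 (background 6.82% of transcripts) and none fell (9.93%), with 2, Scap and Fads1, lower at an unadjusted p under 0.05. The genes that rose were Tm7sf2, Idi1, Hsd17b7, Msmo1, Ebp, Fdps, Fdft1 and Srebf2, so 7 of the 17 sterol enzymes and none of the 8 fatty acid genes. Tm7sf2 rose most, by 1.23 on the log2 scale (SE 0.21, adjusted p = 0.008), and Srebf2 rose least among those called, by 0.47 (SE 0.12, adjusted p = 0.033). By day 2 Ebp, Idi1, Dhcr7 and Srebf2 had risen above day 0 (background 11.5%) and none was lower (11.6%), with 3, Elovl6, Fads1 and Fads2, lower at an unadjusted p under 0.05. These counts were sensitive to the fit, since 0 genes were called on day 1 when the day 2 libraries were left out and 1 when those of day 3 were. On day 2, 2 genes were called higher without the day 1 libraries and 1 without those of day 3.

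By day 3, 7 genes had risen (background 12.8%) and 1 had fallen (17.6%). Ebp rose by 1.39 (SE 0.14, adjusted p = 0.0003), Dhcr7 by 1.09 (SE 0.20, adjusted p = 0.0054) and Tm7sf2 by 1.03 (SE 0.21, adjusted p = 0.0089). Mvd, Idi1, Msmo1 and Srebf2 rose by 0.87, 0.84, 0.55 and 0.55. The gene that fell was Elovl6, by -0.91 (SE 0.26, adjusted p = 0.031). Among the sterol enzymes 6 of 17 thus rose and none fell, and among the 8 fatty acid genes none rose and 1 fell. That difference between the groups was not tested. With each library centred on transcripts of like abundance, 15 genes were called higher and 0 lower on day 3. These included the fatty acid genes Scd1, at 0.54 (adjusted p = 0.046), and Scd2, at 0.38 (adjusted p = 0.038), while Elovl6 was at -0.75 (adjusted p = 0.073). The background shares above belong to the main fit. Shares over all transcripts are not given for the centred or other alternative fits, so their counts have no background here. Without the day 2 libraries 4 genes were called higher and none lower on day 3, and without those of day 1, 2 were called lower. Of these calls, those of Ebp and Tm7sf2 on day 3 were made under all 10 alternatives tried.

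**Figure D4:**
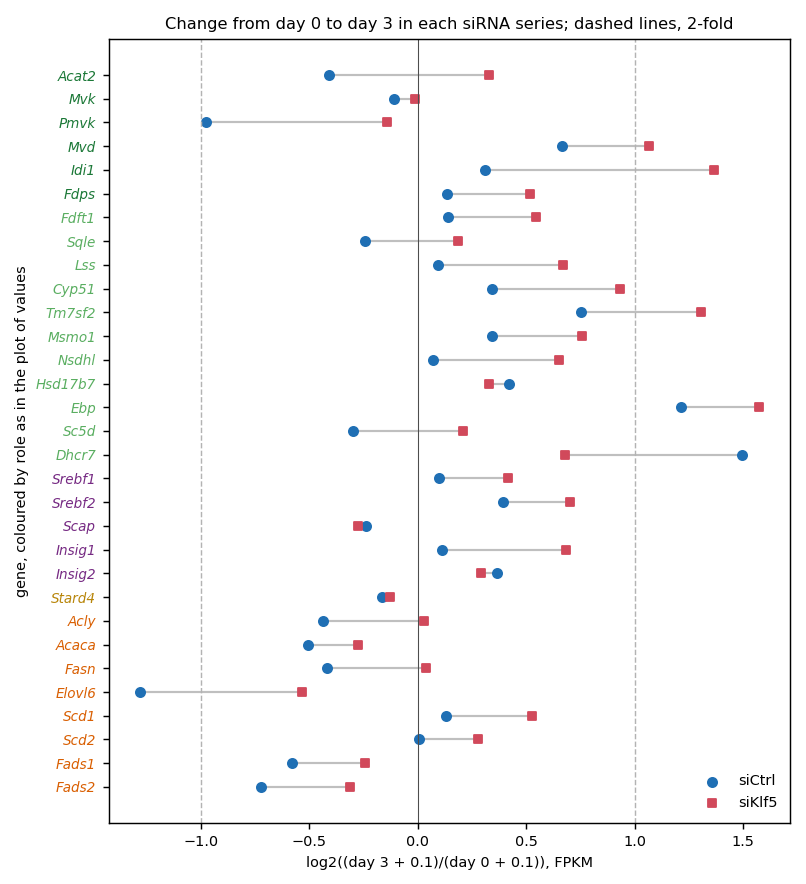
Log2 change from day 0 to day 3 (x axis) for the 31 genes (y axis, names coloured by role), in siCtrl (blue circles) and siKlf5 (red squares), each from 2 libraries; dashed lines mark 2-fold. For most genes the red square lies to the right of the blue circle, and Dhcr7 shows the widest gap in the other direction, from 1.49 in siCtrl to 0.68 in siKlf5.

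Within each siRNA series the same change can be given only as a ratio of 2 libraries. In siCtrl cells Ebp and Dhcr7 were higher past 2-fold on day 3 than on day 0 (background 15.5%) and Elovl6 was lower (12.7%). In siKlf5 cells Mvd, Idi1, Tm7sf2 and Ebp were higher past 2-fold (background 14.9%), and none was lower (12.4%). The median change of the 17 sterol enzymes was 0.14 in siCtrl and 0.65 in siKlf5, and that of the 8 fatty acid genes was -0.47 and -0.11. Idi1 went from 0.31 in siCtrl to 1.37 in siKlf5, and Elovl6 from -1.28 to -0.53.

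Genes of neighbouring pathways were less uniform. For comparison, of all 14312 expressed transcripts 6228 were lower in siKlf5 on day 1 and 6946 were higher on day 3. Of 16 other expressed genes of sterol and isoprenoid synthesis, 8 were higher and 8 lower in siKlf5 on day 3, with a median ratio of 0.02. Of 23 other genes of fatty acid synthesis and elongation, 14 were lower on day 1 (median -0.14) and 19 were higher on day 3 (median 0.17). Of 14 genes of glyceride synthesis and lipid droplets, 11 were lower on day 1 (median -0.09) and 11 were higher on day 3 (median 0.11). The medians for 14 other regulators of SREBP were 0.08 on day 1 and 0.05 on day 3, those for 18 genes of sterol uptake, storage and efflux were -0.22 and 0.06, and those for 20 genes of fatty acid uptake and oxidation were 0.12 and -0.07. In limma none of these genes was called between the siRNAs over the 4 days. At an unadjusted p under 0.05 there were 0 to 5 per list, against 1374 of 14312 transcripts overall.

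Some genes of the sterol and fatty acid supply lines differed past 1.5-fold in 1 direction on at least 3 days. Lpl, the lipoprotein lipase that releases fatty acids for uptake, measured 124.9, 76.3, 79.4 and 91.8 FPKM in siCtrl and 176.9, 189.3, 195.0 and 204.8 FPKM in siKlf5. It was higher in every knockdown library, with ratios of 1.31 (0.89 to 1.74) on day 1 and 1.16 (0.84 to 1.48) on day 3. Nceh1, a neutral cholesterol ester hydrolase, measured 48.9, 55.5, 62.4 and 70.7 FPKM in siCtrl and 76.1, 36.9, 36.9 and 27.9 FPKM in siKlf5, higher on day 0 and lower from day 1 on, with -1.34 (-1.93 to -0.79) on day 3. Ch25h, the cholesterol 25-hydroxylase, lay between 8.67 and 23.2 FPKM in siCtrl and between 1.67 and 8.29 FPKM in siKlf5, whereas Apoe was higher in siKlf5 on each day and measured 77.2 and 125.1 FPKM on day 3. The intervals of these scarce transcripts were wide, and that of Ch25h on day 3 was -4.35 to 0.38.

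The libraries held between 7850497 reads (siCtrl, day 1) and 20301507 reads (siCtrl, day 2), as recovered from the values, and the siCtrl to siKlf5 ratio of depth was 1.09, 0.967, 1.72 and 1.14 on days 0 to 3. All 9 skeletal muscle markers were expressed, with summed FPKM from 3680 to 19666 in siCtrl and from 3038 to 18759 in siKlf5 libraries, and their median ratio was -0.07 on day 1 and 0.00 on day 3. Among them Myog, the differentiation factor myogenin, was lower in siKlf5 on all 4 days and at 60.5% of control on day 3 (-0.73, -0.87 to -0.58). Of 8 adipocyte markers, Pparg was the single gene with a mean of at least 1, and Plin1, Lep and Retn were at 0 in every library. The lists of macrophage markers (4 of the 6 in the table with a mean of at least 1) and endothelial markers (1 of 5) had overlapping ranges of summed FPKM, from 65.3 to 115.5 in siCtrl and 67.9 to 110.2 in siKlf5 for the former and from 0.889 to 3.49 and 0.826 to 5.36 for the latter. Rn45s, the ribosomal precursor transcript that poly(A) selection should remove, measured 14669, 22636, 7680 and 11212 FPKM in siCtrl and 19107, 18620, 12801 and 17553 FPKM in siKlf5. It held 23.0 to 34.2 recovered reads per exon base in every library, above the stated limit of 3 reads per position. How that limit acted on its FPKM cannot be told from these values. The part of Rn45s in the ratios of the 31 genes was not tested.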

How the data were processed

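Poly(A) RNA of C2C12 cells was sequenced in 8 libraries, 1 for each siRNA and day. The authors aligned paired-end reads to mm9 with STAR and counted them on RefSeq exons with HOMER, over both strands, keeping at most 3 reads per position and 1 transcript per gene. Deposited FPKM values were scaled by the authors to a matrix total of 10000000 per library, so they exceed FPKM in the usual sense. Because both strands were counted, a gene and an antisense partner cannot be told apart. Another 8 value columns of the table, on a log scale or without a day in their names, were not used, and the ChIP-seq samples were not analysed here. The study states a DESeq2 normalisation of counts, and those counts were not used here.

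Low values were whole multiples of 1 read: in each library 2729 to 3060 values were examined, and all were within 0.1 of a whole read, which gave the depth. The 95% intervals are exact binomial (Clopper-Pearson) intervals on reads divided by 6, because reads came in clumps, and cover counting error only. Groups were taken from the sample titles.

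Transcripts with a mean of at least 1 FPKM (14312) were tested with limma 3.58.1 in R 4.3.3 (moderated test with trend) on log2(FPKM + 0.1), with Benjamini-Hochberg adjustment over all of them and a threshold of 0.05. Differences of log values understate the change of low transcripts. Ratios between single libraries have no test and were counted past 1.5-fold between siRNAs and past 2-fold between days. Results were recomputed with other pseudocounts, low-value filters, library scalings, cutoffs and model terms, and without each day in turn. Centring each library on a running median over 501 transcripts ordered by abundance, and all alternatives of the pattern on days 1 and 3, were added after seeing the data. The fits were also run on simulated data, with planted differences between siRNAs that were larger than those fitted for these genes. That run does not show whether differences of the sizes reported here would be called. All 32 genes are named. Of the other lists, up to 3 genes per list are named, namely those past 1.5-fold in 1 direction on at least 3 days whose mean was 10 or more. The 32 genes, the lists and the rules were chosen with earlier results of these data known. Promoter windows of 300 bases were read from the mm9 genome at the starts given in the table. Plots were drawn with matplotlib 3.10.9, and tables were handled in Python 3.11.15 with pandas 2.3.3, numpy 2.4.6 and scipy 1.17.1. Some genes of these pathways are not reported here.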

Additional observations from a re-analysis of the deposited data

How the results depend on the processing

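The day 1 reduction and day 3 increase kept their direction under every pseudocount, filter and scaling tried: the median ratio lay between -0.39 and -0.32 on day 1 and between 0.47 and 0.51 on day 3, and 25 to 27 of the 31 genes were lower on day 1 and higher on day 3. The day 2 ratios of Scd1 and Scd2 changed sign with centring by abundance, to -0.18 and -0.10. With a 2-fold cutoff 0 genes were lower on days 1, 2 or 3 and 0 were higher on day 3. With a 1.5-fold cutoff for day 3 against day 0, 4 genes were higher and 3 lower in siCtrl and 11 were higher in siKlf5. Counts called by limma depended on the fit, and those below are given without the share of all transcripts called under the same fit. Without the trend in the variance, 0 genes were higher on day 1, 1 on day 2, 2 on day 3 and 0 were lower on day 3. With a pseudocount of 1 or a mean of at least 10, 1 was lower on day 2 and 2 on day 3, and with upper-quartile or median-ratio scaling 0 were lower on day 3. Without day 1, 2 were higher and 1 lower on day 2, and 2 lower on day 3. Without day 2, 0 were higher on day 1, and 4 were higher and 0 lower on day 3. Without day 3, 1 was higher on day 1, and 1 higher and 1 lower on day 2. With centring by abundance, 7 were higher on day 2, and 15 were higher and 0 lower on day 3. The cause was not tested. The comparison of the siRNAs over the 4 days was paired by day, and without the day term 0 genes were called as well.

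Each condition rests on 1 library, so the ratios carry counting error but no replicate error. The siCtrl library of day 1, which sets the control peak, was also the shallowest. The members had a median of 0.318 to 0.902 reads per exon base by library and up to 4.77 in siCtrl on day 2. Whether the limit of 3 reads per position compressed the most abundant genes there was not tested.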
